A study of Mus musculus with 4 samples.

Results

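The regions described here are KDM5C ChIP-Seq peaks that lay inside genes but far from any promoter. A peak of the WT list on chromosomes 1 to 19 or X was taken when its midpoint fell inside an annotated gene and more than 5 kb from every annotated transcription start site (TSS) of the mouse mm9 assembly, by GENCODE M1. This rule took 413 of 6916 WT peaks, or 5.97% (95% interval 5.42 to 6.56%). Of the other WT peaks, 5278 lay within 1 kb of a TSS, 616 from 1 to 5 kb away, and 609 more than 5 kb away in no annotated gene (intergenic peaks).

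The study asked where KDM5C binds in differentiating male cells in which Xist can be induced. ChIP used an in-house antibody against KDM5C on XΔTsixY epiblast-like cells (EpiLCs) at day 2, of strain C57BL/6J by the labels, and each immunoprecipitate had an input sample beside it. On their single X chromosome, both genotypes carried a truncated Tsix, whose RNA runs antisense to Xist and represses it. WT cells (wtSmcx in the labels) had an intact Kdm5c, also called Smcx. KO cells (koSmcx) carried a deletion allele of Kdm5c with barely detectable protein by the study's account. For the stage, the labels describe conversion to EpiLCs alone, whereas the methods place it after that conversion. For the strain, the methods name a different background for the mutant mice, and a mixed one for those with the Kdm5c allele. The methods give WT peaks called on independent lines and KO peaks on a single sample. Each genotype had 1 deposited peak list, so no value below has a replicate error, no test between genotypes was made, and the lists hold no read counts. The study gives only a minimum depth per sample. Peak lists measure no RNA, so neither the cell type nor the loss of Kdm5c was checked against marker genes.

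KDM5C is a demethylase of histone H3 that acts on lysine 4, with a preference for its di- and trimethylated forms. Trimethylation of this lysine marks active promoters, most of which lie in CpG islands, whereas monomethylation marks enhancers. CpG islands are stretches of DNA that escape the loss of CpG dinucleotides seen in the rest of the vertebrate genome. Some lie within genes, away from the annotated promoter, and are then called intragenic or orphan islands.

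The strongest of these peaks differed in how dense in CpG they were at the summit. Shown are 30 bases centred on the summit of the 5 coding and 3 intronic peaks of highest score that overlapped no KO peak, in mm9, plus strand, 5′ to 3′, with each CpG in capitals. Here and in the sequences below, the class named is that of the peak's midpoint. The class of the printed bases themselves was not determined and can differ. At Nrtn the midpoint was at 56891275 and the summit at 56891100, so its bases may not be intronic.

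Gal3st3, coding exon, chr19:5307353-5307382: ggCGtctactggcctgggacctggaCGaCG
Zfp771, coding exon, chr7:134397836-134397865: agcacCGgCGCGtgcacaCGggCGagaagc
Scrt2, coding exon, chr2:151919341-151919370: ccttctccCGgccctggctgctccagggcc
Maff, coding exon, chr15:79187998-79188027: CGCGgctaCGCGgccagctgcCGCGtgaag
Apba1, coding exon, chr19:23967719-23967748: gtCGaggCGgCGcagCGgCGCGCGctgccc
Nrtn, intron, chr17:56891085-56891114: agctCGctcaCGCGcacctCGagctCGCGc
Hpca, intron, chr4:128790616-128790645: aggagctccagaggcaacaCGaaggagagt
Fbxl5, intron, chr5:44199374-44199403: ccctggcaagccCGgtttcCGcCGggcttc

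The 30 bases held 7 CpG at Apba1, 6 at Maff and at Nrtn, 5 at Zfp771, 3 at Gal3st3 and at Fbxl5, and 1 at Scrt2 and at Hpca. Over the 100 bp at the summit, the median was 10 CpG (range 1 to 23) for peaks in coding exons and 3 (range 0 to 18) for peaks in introns. Scrt2, with 10 CpG in its 100 bp, stood at the coding median, and Hpca, with 5, stood above the intronic median.

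Introns and coding exons held the gene-body peaks in nearly equal numbers, although introns made up almost all of the sequence in which a peak could have been counted. By the midpoint, 200 peaks (48.4%, 95% interval 43.5 to 53.4%) lay in an intron and 184 (44.6%, 39.7 to 49.5%) in a coding exon. A further 20 (4.84%, 2.98 to 7.38%) lay in an untranslated region (UTR) and 9 (2.18%, 1.00 to 4.10%) in an exon of a noncoding transcript. A base that belonged to several classes was given to coding exon first, then UTR, noncoding exon and intron. Of the 785 Mb of gene-body sequence more than 5 kb from a TSS, introns made up 95% (746 Mb) and coding exons 2.15% (16.9 Mb). The density was therefore 10.9 peaks per Mb of coding exon (exact Poisson 95% interval 9.37 to 12.6) and 0.268 per Mb of intron (0.232 to 0.308), a ratio of 40.6 (95% interval 33.0 to 49.8). Intergenic sequence at the same distance from a TSS held 0.451 peaks per Mb (0.416 to 0.488), more than introns did. UTRs, at 1.16 per Mb (0.706 to 1.79), and noncoding exons, at 1.85 per Mb (0.845 to 3.51), lay in between, and their intervals overlapped each other. These intervals, like all in the text, cover counting error only and take peaks as independent.

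**Figure D1:**
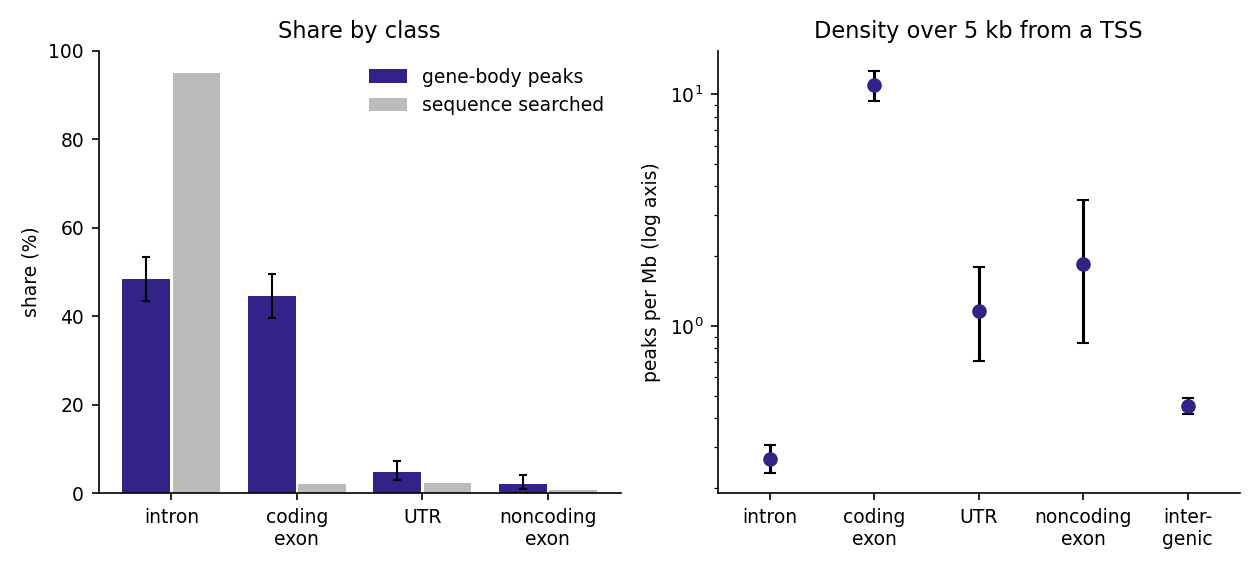
Left, share (%) of the 413 gene-body peaks (dark bars, exact 95% intervals) and of the sequence searched (grey bars) by class. Right, peaks per Mb on a log axis with exact Poisson 95% intervals, where coding exons (10.9 per Mb) stand above introns (0.268 per Mb) and intergenic sequence (0.451 per Mb).

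Peaks in coding exons also had the higher scores. The score is the authors' value for each peak, 10 times the −log10 of its q-value, and describes confidence in the peak rather than occupancy. Its median was 110.5 (95% interval 92 to 130) in coding exons and 52 (47 to 68) in introns, with 76 (70 to 85) over all 413 peaks and 82 (81 to 85) over all WT peaks. The intervals of the coding and intronic medians did not overlap. The median fold enrichment over input was 4.18 (3.87 to 4.38) in coding exons and 3.38 (3.20 to 3.56) in introns. Of the coding peaks, 12% (7.65 to 17.5%) ranked in the top 10% of all WT peaks by score, against 3.50% (1.42 to 7.08%) of the intronic peaks. Peaks within 1 kb of a TSS had a median score of 87 (83 to 90), lower than that of coding peaks, and 11% (10.2 to 11.9%) of them ranked in the top 10%, an interval that lay within that of coding peaks. Intergenic peaks had a median score of 68 (61 to 73), and their interval overlapped that of the intronic peaks.

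**Figure D2:**
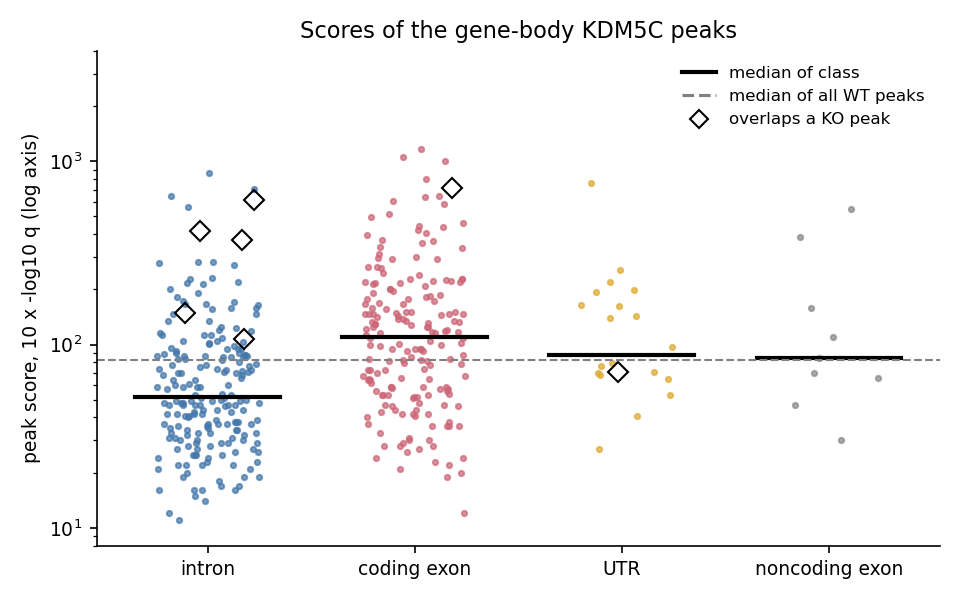
Score of each of the 413 gene-body peaks on a log axis by class, 1 dot per peak, with the class median (bar) and the median of all WT peaks (dashed line, 82). Diamonds mark the 7 peaks that overlapped a KO peak, of which 5 were intronic.

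The peaks of highest score lay in genes of varied function. The first 3 were in the last exons of Gal3st3, Zfp771 and Scrt2. Gal3st3, which encodes a sulfotransferase acting on galactose residues, held the peak of score 1163 and fold enrichment 12.1, rank 36 in the whole WT list. Zfp771, a zinc finger gene, held a peak of score 1051 and fold enrichment 7.93. Scrt2, which encodes a zinc finger repressor of the Snail superfamily expressed in neurons, held a peak of score 1003 and fold enrichment 11.8. All 3 peaks were CpG-rich, with an observed over expected CpG ratio of 1.01, 1.1 and 0.957. The other coding exons among the first 10 belonged to Maff (score 800), which encodes a small MAF transcription factor, to H2afy2 (712), which encodes the histone variant macroH2A2, and to Apba1 (647), a neuronal adaptor that binds the amyloid precursor protein. The intronic peaks among them lay in Nrtn (863), the gene of the growth factor neurturin, in Hpca (709), the gene of the calcium sensor hippocalcin, and in Fbxl5 (648), which encodes an iron-sensing ubiquitin ligase subunit. Introns of Habp4 (612) and Gm17265 (563) followed. The summit sequences of Scrt2, H2afy2 and Gm17265 each had 2 near copies in the genome, themselves included, so reads at these peaks could be shared or lost.

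Of the UTR peaks, the one in Unc13a, which encodes a protein that primes synaptic vesicles for release, stood far above the rest with a score of 763 (chr8:74152774-74153796). The next were in Scrt2 (255), C87436 (219), Epb4.9 (199), which encodes the actin-bundling protein dematin, and Aars (194), the gene of alanyl-tRNA synthetase. The 2 peaks of Scrt2 thus lay in its last coding exon and in its UTR. UTR peaks lay near the end of the host gene, a median of 980 bp from it.

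Only 3 gene-body peaks lay on X, 3.06% of the 98 WT peaks there. All 3 were intronic and CpG-rich. Mid1, which encodes a ubiquitin ligase that binds microtubules, held a peak (chrX:166435069-166435850) of score 200 with a fold enrichment of 2.23, well below the median fold of 3.70 for all gene-body peaks. Bcor, which encodes a corepressor of BCL6, held 2 peaks of scores 103 and 74 and fold enrichments 4.97 and 4.33.

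Fewer gene-body peaks than other WT peaks lay in CpG-rich sequence, and the classes differed widely. A peak was called CpG-rich when the observed over expected CpG ratio across it was at least 0.6 and its G+C content at least 50%. This held for 212 of the 413 peaks, or 51.3% (46.4 to 56.2%), against 81.6% of all WT peaks. The share was 76.1% (69.3 to 82.1%) in coding exons, 55% (31.5 to 76.9%) in UTRs and 27.0% (21.0 to 33.7%) in introns. It was 90.2% (89.4 to 91.0%) within 1 kb of a TSS and 43.3% (39.4 to 47.4%) in intergenic peaks, so that intronic peaks were the least often CpG-rich of all. CpG-rich members had a median score of 109.5 (94 to 131) and the others 54 (47 to 66). Split by sequence type, the score differed less between the classes. The median was 123 (94 to 145) for CpG-rich coding peaks and 92 (64 to 113) for CpG-rich intronic peaks. Among peaks that were not CpG-rich it was 80 (56 to 109) in coding exons and 47 (39 to 57) in introns, and in both types the intervals overlapped.

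**Figure D3:**
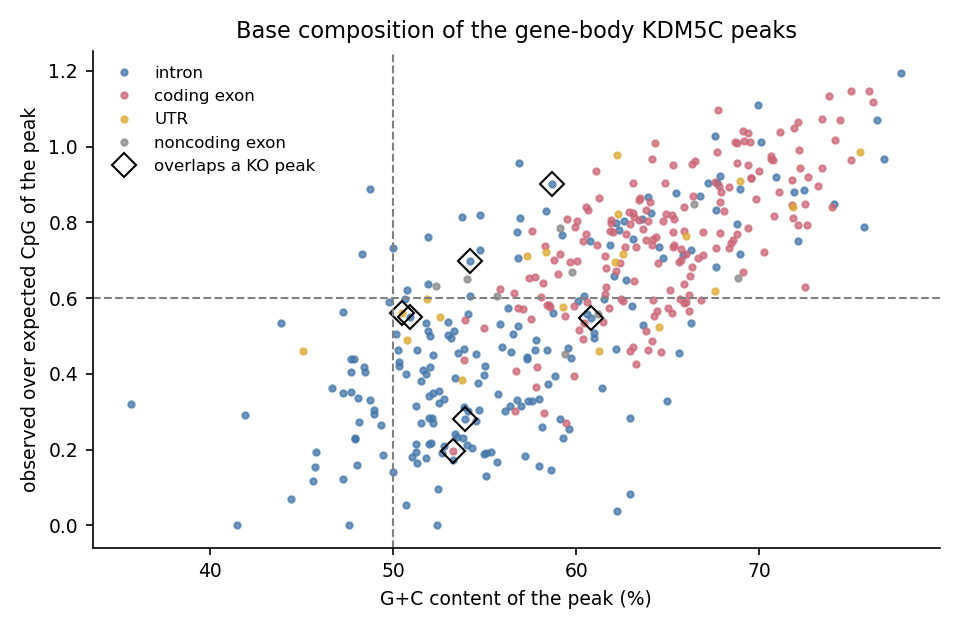
Observed over expected CpG against G+C content (%) of each gene-body peak, coloured by class, with dashed lines at the limits for CpG-rich sequence (0.6 and 50%). Coding peaks (76.1% CpG-rich) fill the upper right, and most intronic peaks (27.0% CpG-rich) lie below the CpG limit.

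Sequence that was CpG-rich did not hold peaks equally often in all classes. The genome was cut into windows of 500 bp, each classed by its centre. In coding exons more than 5 kb from a TSS, 123 of 707 CpG-rich windows, or 17.4% (14.7 to 20.4%), held the midpoint of a WT peak. Within 1 kb of a TSS the share was 19.5% (19 to 20.0%), an interval that overlapped that of coding exons. In introns it was 2.51% (1.93 to 3.22%), or 61 of 2427 windows, and in intergenic sequence 3.23% (2.83 to 3.66%). Many of the CpG-rich intron windows were repeated in the genome, and only uniquely mapped reads had been kept. Of the 1376 such windows with more than 1 copy, 0 held a peak midpoint (upper 95% bound 0.268%). Copies were counted here over the whole 500 bp. By the 200 bp at the summit, 13 of the 200 intronic peaks (6.50%, 3.51 to 10.9%) had more than 1 copy. Among these were CpG-rich peaks, such as those in Gm10406 (42 copies) and Fam150a (3 copies), so repeated sequence did yield some peaks. Among windows with 1 copy the shares were 5.80% (4.47 to 7.39%) in introns and 17.5% (14.8 to 20.5%) in coding exons, closer together but with intervals still apart. In windows that were not CpG-rich the shares were 0.108% (0.0757 to 0.150%) in coding exons and 0.0109% (0.00927 to 0.0127%) in introns.

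Peaks in coding exons were mostly in long ones, often the last of the transcript. Where transcripts differed, the longest exon that held the midpoint was used. Of the 184 coding peaks, 135 (73.4%, 66.4 to 79.6%) lay in an exon of at least 500 bp and 97 (52.7%, 45.2 to 60.1%) in one of at least 1000 bp. The median length of the exons that held them was 1060 bp. The last exon of the transcript held 96 of them (52.2%, 44.7 to 59.6%).

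Set against all coding exons of the same kind, length and CpG content went with the share that held a peak. Of CpG-rich coding stretches of at least 1000 bp, 32 of 67 held a peak midpoint, or 47.8% (35.4 to 60.3%). The share was 30.1% (23.6 to 37.2%) from 500 to under 1000 bp, 3.33% (2.43 to 4.45%) from 200 to under 500 bp and 0.185% (0.104 to 0.305%) below 200 bp. Among stretches of at least 1000 bp that were not CpG-rich, 19 of 1188 held one, or 1.60% (0.966 to 2.49%). A longer stretch has more room for a midpoint, and the part of length alone was not tested. Among CpG-rich stretches of 200 to under 500 bp, last exons held a peak more often (6.60%, 4.08 to 10.0%) than other exons (2.36%, 1.52 to 3.49%). From 500 to under 1000 bp the shares were 29.4% (20.8 to 39.3%) in last and 31% (21.3 to 42.0%) in other exons, and at 1000 bp or more 51% (36.3 to 65.6%) and 38.9% (17.3 to 64.3%). Intervals were apart in the shortest of these length ranges and overlapped in the 2 longer ones.

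**Figure D4:**
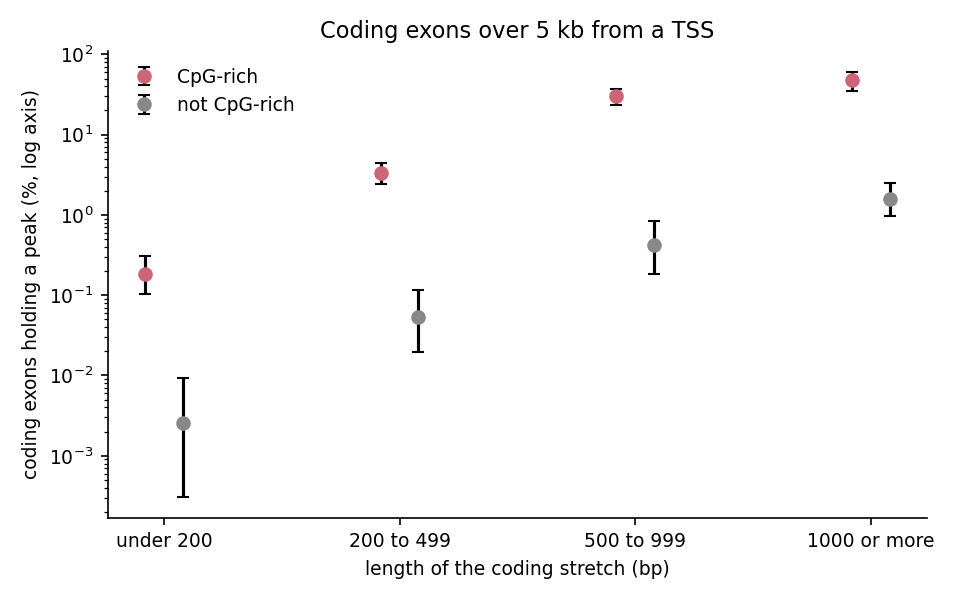
Share (%) of coding exons more than 5 kb from a TSS that held a peak midpoint, on a log axis, by the length of the coding stretch in bp and by CpG content, with exact 95% intervals. The share rose with length in both kinds and reached 47.8% in CpG-rich stretches of 1000 bp or more.

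Along the host gene, coding peaks were gathered toward the 3′ end and intronic peaks were not. On a scale from 0 at the gene start to 1 at its end, the median position was 0.847 (0.796 to 0.879) for coding peaks, 0.961 (0.911 to 0.992) for UTR peaks and 0.506 (0.463 to 0.590) for intronic peaks. Over all 413 peaks it was 0.705 (0.665 to 0.771). The rule removes the first 5 kb of each gene and so shifts this scale, so positions were also counted over only the bases of the host that were more than 5 kb from a TSS. On that scale the last 20% of the sequence held 42.4% of coding peaks and 19% of intronic peaks, and the first 20% held 7.61% and 25%. The scale takes all such bases together, and the spread of coding bases along it was not measured. Whether the position of coding peaks differs from that of coding sequence was therefore not tested. The median distance to the nearest TSS was 12619 bp (range 5008 to 202872 bp).

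**Figure D5:**
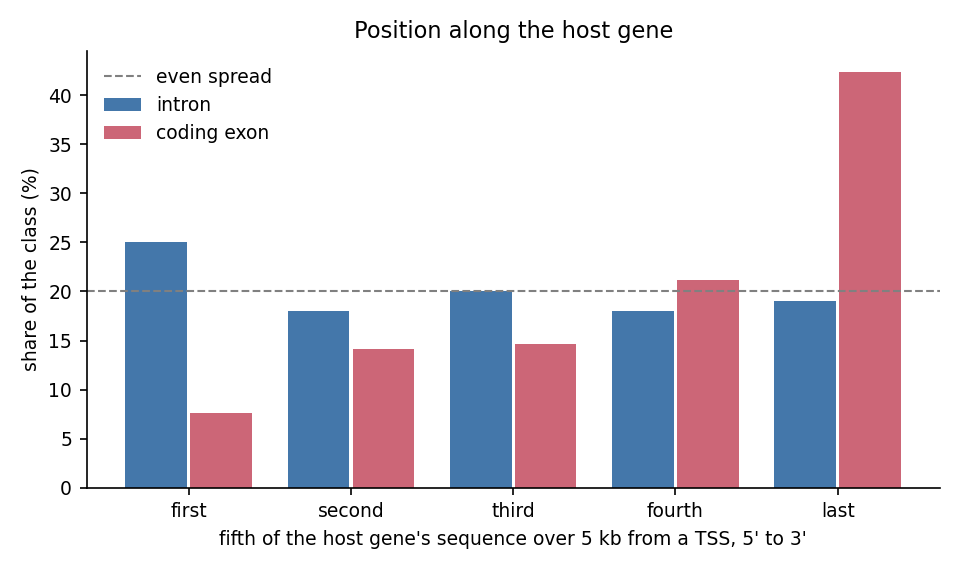
Share (%) of intronic and of coding peaks in each successive 20% of the host gene's sequence more than 5 kb from a TSS, from 5′ to 3′. An even spread over all such sequence, coding or not, would put 20% in each (dashed line), and the last part held 42.4% of the coding peaks.

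At the limit of 5 kb, the members just inside were in Camta1 (5008 bp, score 42), E030007J07Rik (5077 bp, score 110) and Cyp26b1 (5088 bp, score 42). Those just outside were in Nkpd1 (4986 bp, score 374), Guca1a (4976 bp, score 39) and Sec31b (4954 bp, score 54). The score of Nkpd1 was above the 90th percentile of the WT list (320), and the other 5 peaks scored 110 or less.

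The distance rule depends on which starts are annotated. RefSeq gives starts for a later assembly (GRCm38.p6), and the 80 bases around each were sought in mm9 by exact match. At least 35 gene-body peaks (8.47%, 5.97 to 11.6%) had such a start within 5 kb, 20 (4.84%) within 1 kb and 10 (2.42%) inside the peak. Starts inside the peak included those of Gm42064 in Gal3st3, Gm39195 in Unc13a, 2310034G01Rik in Tmem180, and Exosc6, which encodes a subunit of the RNA exosome, in Aars. The intronic peak of the potassium channel gene Kcnq1 (score 113) lay 834 bp from the start of Kcnq1ot1, the noncoding RNA of that imprinted domain. The highest gene-body peak and the highest UTR peak thus each held the start of another gene in the later annotation.

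The 413 peaks lay in 392 genes, of which 369 were protein-coding. Most hosts held 1 peak. Bcl11b, which encodes a transcription factor needed in T cell development, and Shank3, which encodes a scaffold of the postsynaptic density, each held 3. The scores were 215, 59 and 34 in Bcl11b and 98, 64 and 17 in Shank3, and each gene had a CpG-rich peak in its last coding exon (59 and 64). The gene model Gm20388 on chromosome 8 held 11, but it is 4.43 Mb long and spans 72 other protein-coding genes. Of its 11 peaks, 9 lay in no other gene, and without it the number of gene-body peaks was 404.

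Zinc finger genes held gene-body peaks more often than protein-coding genes as a whole. Of 259 genes named Zfp with a number and with sequence more than 5 kb from a TSS, 17 (6.56%, 3.87 to 10.3%) held a peak, against 2.56% (2.31 to 2.83%) of all 14413 such protein-coding genes. Per Mb of that sequence they held 3.01 peaks, against 0.520. Of the 17 peaks, 12 lay in a coding exon, and the highest were in Zfp771 (1051), Zfp444 (458), Zfp697 (419) and Zfp777 (238). These 4 peaks were all CpG-rich and in the last exon. Of all 17, however, 9 were CpG-rich, against 51.3% of all gene-body peaks, and 5 lay in an intron. The coding peaks of Zfp219 and Zfp64 were not in the last exon. Zinc finger genes commonly encode their repeated fingers in 1 long last exon. None of the 17 was among the 18 gene-body peaks with more than 1 copy of their summit sequence in the genome, which are described with the KO overlaps.

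In the other groups the intervals around the share of host genes were wide. That share was above the 6.56% of zinc finger genes in 4 groups. These were glutamate and GABA receptors (12.2%), imprinted genes (10.0%), cadherins (9.30%) and genes listed under histone methylation (7.02%). The densities of the other groups, from 0 to 1.46 peaks per Mb, were nearer to that of all protein-coding genes than to that of the zinc finger genes. Glutamate and GABA receptors had 5 hosts of 41 (12.2%, 4.08 to 26.2%) and 0.443 peaks per Mb over 11.3 Mb of such sequence. Their highest peaks were in coding exons of the glutamate receptor genes Grik4 (105), Grm5 (94) and Grm3 (83) and in an intron of Grik3 (64). Cadherins and protocadherins had 4 hosts of 43, namely Cdh15 (373), Cdh20 (134), Celsr3 (94) and Pcdhgc5 (47). Genes listed under histone lysine methylation, a list that takes in Prdm genes, had 4 of 57. These were Prdm13 (133) and Prdm12 (132) in coding exons and Prdm16 (66) and Ezh2 (11) in introns. Ezh2, the methyltransferase of Polycomb repressive complex 2, held the peak of lowest score among all 413. Developmental transcription factors had 5 of 84, with the hedgehog effectors Gli1 (79) and Gli2 (50), Pax7 (35) and Foxo3 (29) the highest. Voltage-gated channels had 3 of 53, in Kcnq1 (113), Scn8a (99) and Cacna1c (68). Axon guidance genes had 3 of 53, with 2 peaks in Ephb2 (146 and 88) and 1 each in Epha8 (117) and Slit3 (34). Imprinted genes had 3 of 30, which were Cdh15 (373), Trappc9 (171) and Kcnq1 (113). The Cdh15 and Kcnq1 peaks are the same as those counted with the cadherins and the channels, and the Cdh15 peak overlapped a KO peak. Germline genes had 1 of 93, Tdrd3 (89), and pluripotency and epiblast genes 1 of 25, Grhl2 (33). Collagens, laminins and other matrix genes had 0 of 73 (upper 95% bound 4.93%), although they held 7.82 Mb of such sequence.

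Short motifs were counted in the 300 bp centred on each summit, on both strands, and a match is a description of letters and not evidence of a bound factor. The E-box CACGTG, recognized by factors such as MYC, MAX and USF, was the most frequent of 8 motifs listed first. It is also the shortest of the 8, so its frequency cannot be compared directly with theirs. It was present in 100 of 413 gene-body peaks, or 24.2% (20.2 to 28.6%), and in 20.6% (19.7 to 21.6%) of all WT peaks. In comparison, it was in 3.25% of all 300 bp windows of gene-body sequence more than 5 kb from a TSS and in 7.15% (6.87 to 7.43%) of 32851 RefSeq promoters of the same length.

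The E-box was no more frequent in CpG-rich peaks than in the others. It was in 28.9% (22.7 to 35.6%) of gene-body peaks that were not CpG-rich and in 19.8% (14.7 to 25.8%) of those that were, and the intervals overlapped. Gene-body windows that were not CpG-rich but had a G+C content of at least 50% held it in 5.23% of cases, and CpG-rich windows in 8.44%. Intronic peaks (23.5%, 17.8 to 30%) and coding peaks (25.5%, 19.4 to 32.5%) held it about equally often. Its distance from the summit had a median of 55 bp, and 46.0% of the nearest matches lay within 50 bp, a stretch that makes up 33.3% of the window. Only the match nearest the summit was taken and some peaks held several, so evenly spread matches would give more than 33.3%. The median score was 86.5 with an E-box and 74 without. Shown are 30 bases around E-boxes (capitals) in the 3 coding and 3 intronic peaks of highest score that held one, in mm9, plus strand.

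Scrt2, coding exon, chr2:151919292-151919321: CACGTGctcacgcacaacctgcgccacaag
Klhl26, coding exon, chr8:72976408-72976437: agcaggttgcatgagcgggaagcgCACGTG
Cilp2, coding exon, chr8:72406248-72406277: CACGTGcacgtccgcgcgcgcCACGTGcag
Hpca, intron, chr4:128790609-128790638: CACGTGtaggagctccagaggcaacacgaa
Padi1, intron, chr4:140379559-140379588: CACGTGcctggCACGTGaccttaatgtgaa
Nfib, intron, chr4:82159327-82159356: CACGTGgccggcgctgctgctgcccgggcc

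Cilp2 (score 443), which encodes a cartilage matrix protein, and Padi1 (414) held 2 E-boxes within 30 bases. Klhl26 (586), which encodes a Kelch-like protein, held 1 in its 30 bases. Hpca (709), whose summit is shown earlier, had its E-box next to the bases printed there. Nfib (219) encodes a transcription factor of the nuclear factor I family.

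Of the other motifs, NRF1 (GCATGCGC) was in 6.05% (3.96 to 8.81%) of gene-body peaks, against 0.361% of gene-body windows, 1.97% of CpG-rich ones and 4.79% of all WT peaks. The letters GGGGGCGC, a core of the CTCF motif, were in 5.33% (3.37 to 7.95%), against 0.128% of windows and 1.79% of CpG-rich ones. The E2F motif TTCCCGC was in 5.81% (3.76 to 8.52%), against 0.559% of windows and 3.26% of CpG-rich ones but 11.9% (11.2 to 12.7%) of all WT peaks, so gene-body peaks held it less often than the list as a whole. The AP-1 motif TGACTCA was in 8.50% (5.03 to 13.3%) of intronic and 1.63% (0.338 to 4.69%) of coding peaks, against 4.86% of windows and 2.32% of CpG-rich ones. For the first 3 of these motifs, the contrast of all gene-body peaks with CpG-rich windows was thus much smaller than that with all windows. Peaks that were not CpG-rich held NRF1 in 5.97%, GGGGGCGC in 4.98% and E2F in 5.97% of cases. CpG-rich peaks held them in 6.13%, 5.66% and 5.66%. Windows that were not CpG-rich but had a G+C content of at least 50% held them in 0.606%, 0.423% and 1.32%. The octamer ATGCAAAT (0.726%), the ESRRB motif TCAAGGTCA (0.484%) and the CRE TGACGTCA (0.484%) were rare. Windows hold all sequence, mappable or not.

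The KO list gives peaks called with the same antibody where KDM5C is lost. It held 44 peaks on the chromosomes used, against 6916 in the WT list, and was called on a single sample by the methods. Its size bounds the overlaps that could be found, so a peak without a KO overlap is not thereby shown to depend on KDM5C. Of the gene-body peaks, 7 (1.69%, 0.684 to 3.46%) overlapped a KO peak by at least 1 bp, against 0.622% of all WT peaks. The share was 0.398% (0.246 to 0.608%) within 1 kb of a TSS and 1.48% (0.678 to 2.79%) in intergenic peaks. By class, 5 of the 7 were in introns, 1 in a coding exon and 1 in a UTR, and only 2 were CpG-rich. The count was also 7 when at least 50% of both peaks had to overlap.

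The 7 fell into strong peaks of high fold enrichment and weak ones. The coding peak of H2afy2 (chr10:61203705-61204286) had the highest fold enrichment of all 413 peaks, 15.3, with a score of 712. Habp4, whose protein binds hyaluronan and RNA, had a score of 612 and a fold of 13.2. In Padi1, the gene of a peptidylarginine deiminase, the score was 414 and the fold 10.6, and in Cdh15, the gene of the muscle cadherin, 373 and 10.0. The peak of 2700049A03Rik, which encodes a ciliary protein, had 148 and 5.35. An intronic peak shared by 2610528E23Rik and Filip1l (chr16:57391384-57391990) had a score of 107 and a fold of 1.97. The UTR peak of Lars2 (chr9:123370856-123371390), the gene of the mitochondrial leucyl-tRNA synthetase, had 71 and 1.96. In the KO list, called separately and on fewer samples, the overlapping peaks had folds from 2.17 at Lars2 to 12.9 at Habp4.

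Copy number and sequence differed among the 7. The 200 bp at the summit had 5 copies in the genome for Lars2, 4 for 2610528E23Rik and 2 for H2afy2, and 1 copy for the other 4. Of all 413 gene-body peaks, 18 (4.36%, 2.60 to 6.80%) had more than 1 copy, with 42.9% (9.90 to 81.6%) among those that overlapped a KO peak and 3.69% (2.08 to 6.02%) among the rest. With 1-copy members alone, 4 overlapped a KO peak. The part of repeated sequence in these overlaps was not tested. The 4 single-copy peaks all held TGCCGC, the letters bound by the imprinting factor ZFP57 when methylated. This motif was chosen after earlier results on these peaks were known, so its presence in all 4 is a description and not a test. Shown are the 30 bases of the 300 bp at the summit that hold most matches (capitals), in mm9, plus strand.

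Habp4, intron, chr13:64271217-64271246: TGCCGCggatgcTGCCGCggacgcTGCCGC
2700049A03Rik, intron, chr12:72343219-72343248: TGCCGCgccacgatgcTGCCGCgccacgat
Padi1, intron, chr4:140379613-140379642: TGCCGCacaccgtggtgactgcggctgagc
Cdh15, intron, chr8:125389217-125389246: cgtgcctccagttctcatcctgctTGCCGC

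The 300 bp at the summit held 6 matches at Habp4, 3 at 2700049A03Rik, 2 at Padi1 and 1 at Cdh15, and 0 at H2afy2, 2610528E23Rik and Lars2. At least 1 match was in 27.1% (22.9 to 31.7%) of all gene-body peaks and in 11.6% (11.3 to 12%) of RefSeq promoters, so a single match was common. At least 3 matches were in 8 of the 413 gene-body peaks (1.94%, 0.840 to 3.78%) and in 1.43% (1.16 to 1.74%) of all WT peaks. Of these 8, 2 overlapped a KO peak, Habp4 and 2700049A03Rik.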

How the data were processed

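Single-end reads of KDM5C immunoprecipitate and input were aligned to mm9 by the authors with Bowtie (1.1.2 in the submitters' processing notes, another version in the methods), and only uniquely mapped reads were kept. Peaks were called with MACS2 2.1.0.20140616 against input, with limits on q-value (0.1) and fold enrichment. Titles gave the genotype of each of the 4 samples and whether it was immunoprecipitate or input. The authors deposited 1 list per genotype, with a score for each peak, a fold enrichment ratio over input, −log10 p-value, −log10 q-value and summit offset. The deposited score equalled 10 times −log10 q with decimals dropped in every row.

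From these lists, peaks were assigned to NCBIM37 (mm9) sequence and GENCODE M1 annotation (37252 genes on the chromosomes used) with coordinates counted from 1. Intervals are exact Clopper-Pearson 95% intervals for shares and order-statistic intervals for medians. Copies of 200 bp at the summit and of CpG-rich 500 bp windows were counted with BLAST 2.17.0 (at least 90% identity over at least 80%). Class, host and overlap calls were tested on 600 simulated intervals, all recovered. Promoter sequences were RefSeq's (GRCm38.p6).

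Genes were named by rule: hosts of the 10 highest scores, the 5 highest in introns, coding exons and UTRs, the 3 highest on X, every peak that overlapped a KO peak, hosts of at least 3 peaks, and up to 4 per gene list. The members and lists were chosen with earlier results of these data known. Klhl26, Cilp2 and Nfib were named for their motif, and RefSeq starts and the peaks at the distance limit for their position.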

Additional observations from a re-analysis of the deposited data

How the results depend on the processing

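Of 67 alternative values for 10 results, 53 stayed within the interval of the reported value (counts, within 1.5 times it) and 14 moved. With a limit of 10 kb from every TSS, there were 262 gene-body peaks in 243 genes, with 55% in introns and 45.8% CpG-rich. With only peaks that scored no lower than the WT median, there were 195 peaks in 191 genes, of which 34.9% were intronic, 57.4% coding and 67.2% CpG-rich, with a median position of 0.772. Both limits remove peaks by construction. Giving bases to introns before exons put 55% in introns and 39.2% in coding exons, again by construction. Stricter CpG limits (0.65 and 55%) gave 45% CpG-rich. With 1 genomic copy at the summit, 4 peaks overlapped a KO peak. The ratio of coding to intronic density was 38.8 at 10 kb and 42.3 with summits in place of midpoints. Leaving out peaks with a RefSeq start within 5 kb (378 left) and leaving out Gm20388 (404 left) were chosen after seeing the data and moved no result. No paired analysis was possible because WT and KO had 1 peak list each, and for the same reason no replicate could be left out. Peak lists hold no read counts, so depth could not be varied.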

Other observations

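Chromosome 8 held 43 of the gene-body peaks, 10.9% of its 394 WT peaks, the largest share of any chromosome, of which 9 lay in Gm20388 alone. On the other chromosomes the share ran from 3.06% on X to 8.33% on chromosome 19. Of the 413 peaks, 29 were wider than 1 kb, and the widest, 2372 bp, lay in a coding exon of Cilp2. A q-value above 0.01 was found for 16 of the 413 peaks, with a maximum of 0.0661.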
